A study of Homo sapiens with 12 samples.

Results

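Single HCT116 cells whose libraries had been depleted of ribosomal RNA (rRNA) were compared with single HCT116 cells whose libraries had not. HCT116 is a human colon carcinoma cell line. The labels name the input and the depletion state of every library, and by these labels 4 single-cell libraries were DASHed and 4 were untreated, 8 of the 12 libraries of the series. The mini-bulk libraries were not used. By the labels, single cells were sorted by FACS and carried through MATQ-seq, a sensitive method that reads RNAs with and without a poly(A) tail, and the labels record no other treatment, no genotype beyond the cell line, and no culture, clone or passage. Libraries with the same replicate number were taken as a pair, so that each DASHed library was set against the untreated library of its own number. The labels do not say whether the 2 libraries of a pair came from 1 cell or from different cells, and same-numbered libraries had closely correlated deviations from their group means (0.866 to 0.872). Below, DASHed or untreated cell 1 stands for the library of that number, and the number of distinct cells behind the 8 libraries is not known.

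Ribosomal RNA makes up most of the RNA of a cell, and a protocol that reads total RNA spends much of its depth on it. In DASH, the Cas9 nuclease is programmed with guide RNAs against unwanted sequence and cuts library molecules that carry it, so that they are not carried into the final library. Cas9 cuts where the guide matches and a short motif, the PAM (NGG for the usual enzyme), follows directly on the target. Any other transcript that carries the same stretch and PAM can in principle be cut as well. The comparison therefore asks how the levels of all other transcripts differ between depleted and untreated cells once rRNA has been set aside.

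The untreated libraries held 5545355 to 6008358 estimated counts and the DASHed libraries 1018874 to 1573651. Rows of rRNA took 49.5 to 52.9% of the untreated and 20.5 to 24.4% of the DASHed counts, each share with an exact binomial 95% interval of at most ±0.0785 percentage points (counting error only). A further 21.1 to 29.2% of the untreated and 9.33 to 14.8% of the DASHed counts stood under 4 gene names, FP236383.2, FP236383.3, FP671120.3 and FP671120.4, whose annotated transcripts lie inside 18S rRNA. After both were left out, 1077290 to 1505387 counts remained in the untreated cells and 714573 to 1070836 in the DASHed cells. Levels are given as CPM, these remaining counts scaled to the same total in every library. Of 12 listed epithelial markers 11 had counts and 3 were measured as defined below, and together they stood at 1265 to 6110 CPM. KRT8 and KRT18, typical of colon carcinoma cells, were present in every library at 163 CPM or more, but share sequence with other genes. The 10 haematopoietic markers together reached at most 5.38 CPM, and 8 of them were at 0 in all 8 libraries. The 10 fibroblast and endothelial markers together reached at most 33.0 CPM, and 5 were at 0 in all 8 libraries.

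On the scale of the remaining total, and relative to the middle of all measured genes as defined below, the row of 18S rRNA was 7.94-fold lower after depletion, with a log2 ratio of −2.99 ± 0.09 (SD, n = 4 pairs), and the row of 28S rRNA was 11.4-fold lower (−3.51 ± 0.05). The 5.8S rRNA row stood at 0.03 ± 0.17. The 4 genes inside 18S rRNA, taken as 1 sum, were 7.58-fold lower (−2.92 ± 0.26). The mitochondrial rRNAs were lower too, MT-RNR1 (12S) by −1.77 ± 0.21 and MT-RNR2 (16S) by −2.30 ± 0.19 on the log2 scale. All of these rows but 5.8S rRNA were lower in every pair. None of the rows, 5.8S rRNA included, enters the counts that follow.

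For every other gene the log2 ratio of DASHed to untreated CPM was taken within each pair, with 1 CPM added to both, and the median over all measured genes was subtracted. A gene counted as measured if the mean of the pair reached 20 CPM in each of the 4 pairs, which corresponds to 14.3 to 30.1 counts in a library. This left 2537 genes, which held 66.2 to 74.4% of the remaining counts. No test was made, because each sample is a library labelled as a single cell and the labels name no culture. A gene is called higher or lower where it lay at least 2-fold from the pair median on the same side in all 4 pairs. The subtracted medians were 0.17, 0.18, 0.16 and 0.21 on the log2 scale in pairs 1 to 4, so the middle gene took slightly more of the remaining counts after depletion.

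The ratios were lopsided. Of the 2537 measured genes, 317 were called lower (12.5%) and 5 were called higher (0.197%), 12.7% together. In single pairs, 554 to 648 genes were at least 2-fold lower and 22 to 61 at least 2-fold higher. Among the 317, 168 were on average at least 4-fold lower and 27 at least 8-fold lower. Below the pair median in all 4 pairs lay 890 genes (35.1%), above it in all 4 lay 845 (33.3%), and 802 (31.6%) were on different sides in different pairs. The split depends on the scaling. With DESeq2 size factors, under which the median measured gene stood 0.51 above 0, 75 genes were called higher and 156 lower, so 32.5% of the calls were higher. With TMM factors (median 0.31) there were 12 and 204. With rRNA and the genes inside 18S kept in the total and no centring, the median gene stood 1.94 above 0, and 1108 genes were called higher and 8 lower. All ratios below are relative to the pair median.

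Transcripts that carry rRNA sequence are given first, because 2 of the 10 genes with the lowest mean ratios carry stretches of rRNA. The guide sequences of the study were not used here. In their place, every 20-base stretch followed by NGG on either strand was collected from the annotated rRNA transcripts of GENCODE v29: 172 from the 18S part covered by the 4 genes above, 14 from 5.8S, 27 from 5S, 112 from mitochondrial 12S and 185 from mitochondrial 16S rRNA. The 28S rRNA and the rest of 18S rRNA were not searched, so genes that carry only stretches of those are not among the holders counted here. Outside the rows left out, 23 genes carry a stretch that was searched, 20 of them had counts, and 2 were measured: AC010970.1 and MTRNR2L1. AC010970.1 is annotated as a processed pseudogene of 1848 bases at chrY:10197256-10199103 (GRCh38, minus strand) and carries 6 stretches of 18S rRNA. They are shown because they are the only measured match to the nuclear rRNA searched. Each is written 5′ to 3′ on the strand of the site, with the PAM in capitals, and named by the lowest transcript position of the site, counted from 1 at its 5′ end (GENCODE v29).
AC010970.1 from base 349: ctgtgatgcccttagatgtcTGG
AC010970.1 from base 579: aacctcacccggcccggacaTGG
AC010970.1 from base 662: gttgcaaagctgaaacttaaAGG
AC010970.1 from base 892: tagaggtgaaattcttggacTGG
AC010970.1 from base 896: tccaagaatttcacctctagTGG
AC010970.1 from base 939: gaggccatgattaagagggaTGG

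The level of AC010970.1 was 355, 174, 269.8 and 290.0 CPM in untreated cells 1 to 4 and 24.5, 9.80, 16.8 and 34.5 CPM in DASHed cells 1 to 4. The highest DASHed cell lay far below the lowest untreated cell, so the groups did not overlap. The mean log2 ratio was −3.87 ± 0.43, or 14.7-fold lower, which is below the row of 18S rRNA itself. The longest run of bases that it shares with a transcript of the genes inside 18S rRNA is 35 bases, and 0.55% of its 31-base words occur in any other transcript of the annotation. The full 18S rRNA sequence was not used here, and how many counts of AC010970.1 came from reads of 18S rRNA was not tested.

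MTRNR2L1 is a nuclear gene of the humanin-like family at chr17:22523111-22524663 (plus strand), whose sequence derives from mitochondrial 16S rRNA. It carries 35 stretches of 16S rRNA, of which the first, one near the middle and the last but one on the strand of the transcript are shown in the same form.
MTRNR2L1 from base 44: catttacccaaataaagtatAGG
MTRNR2L1 from base 768: gaaaggttaaaaaaagtaaaAGG
MTRNR2L1 from base 1522: acccacacccacccaagaacAGG

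MTRNR2L1 stood at 527, 373, 299 and 292 CPM in untreated cells 1 to 4 and at 35.5, 36.4, 16.8 and 21.7 CPM in DASHed cells 1 to 4. Every DASHed cell lay far below every untreated cell, and the mean log2 ratio was −3.91 ± 0.31 (15.1-fold lower). Its value is uncertain, because 15.4% of its 31-base words occur in transcripts of other genes, and its longest identical run with MT-RNR2 is 60 bases. The other members of the family were too low to be measured singly. MTRNR2L12, with 53 stretches, had 162 counts over the 4 untreated and 8 over the 4 DASHed libraries, and MTRNR2L8, with 49 stretches, had 91 and 14. These counts are not scaled for depth. In summed CPM the DASHed levels were 0.068 and 0.233 of the untreated. The 13 family members taken as 1 sum gave a log2 ratio of −3.80 ± 0.23. A gene with stretches of 5S rRNA, GNPTAB, which encodes a subunit of the enzyme that tags lysosomal proteins, had 514 and 129 counts and was not measured. In summed CPM its DASHed level was 0.385 of the untreated.

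All measured mitochondrial RNAs were called lower. The mitochondrial genome encodes 13 mRNAs, all for proteins of oxidative phosphorylation, beside its 2 rRNAs and 22 tRNAs, and its strands are transcribed as long precursors that are later cut into single RNAs. In untreated cells 1 to 4 the mRNAs took 6.97, 8.37, 6.64 and 6.97% of the remaining counts, and in DASHed cells 1 to 4 1.504, 1.89, 1.36 and 1.90%, each with an exact binomial 95% interval of at most ±0.0481 percentage points. The groups were far apart, and the share after depletion was 0.230 ± 0.030 of that before (SD, n = 4 pairs). All 13 mRNAs were called lower, against 12.5% of all measured genes, and so were the 5 of 22 tRNAs that were measured. The filter takes the mean of a pair, so a tRNA can pass it through its untreated level alone, as MT-TV did. The count of tRNAs called lower is therefore only a description of those that passed.

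MT-CO1, the catalytic core of cytochrome c oxidase, stood at 18388, 20776, 16924 and 19596 CPM in untreated cells 1 to 4 and at 4786, 5589.5, 4034 and 6395 CPM in DASHed cells 1 to 4. No DASHed cell reached the level of any untreated cell, and the mean log2 ratio was −2.06 ± 0.17. MT-ND4, a subunit of complex I, stood at 16551, 21991, 13574 and 11715 CPM in untreated cells 1 to 4 and at 2657, 4002, 2136 and 2302 CPM in DASHed cells 1 to 4 (−2.71 ± 0.13) and was highest in cell 2 of both groups. MT-ND1, also of complex I and the mRNA next to 16S rRNA, had the smallest difference: it stood at 4873, 4761, 5438 and 6102 CPM in untreated cells 1 to 4 and at 1819, 1769, 1903 and 2863 CPM in DASHed cells 1 to 4 (−1.54 ± 0.17). Even here the highest DASHed cell lay below the lowest untreated cell. MT-ATP8, a small subunit of ATP synthase, had the largest difference among the mRNAs: it stood at 446, 628, 468 and 445 CPM in untreated cells 1 to 4 and at 18.7, 18.2, 14.01 and 22.7 CPM in DASHed cells 1 to 4 (−4.86 ± 0.37, 29.1-fold lower). The remaining 9 mRNAs lay between these. MT-CYB, of complex III, was at −2.09 ± 0.15. The other oxidase subunits, MT-CO2 and MT-CO3, were at −2.28 ± 0.18 and −2.11 ± 0.17. Complex I subunits ranged further down, with MT-ND5 at −2.32 ± 0.13, MT-ND2 at −2.78 ± 0.15, MT-ND3 at −3.12 ± 0.35, MT-ND6 at −3.34 ± 0.27 and MT-ND4L at −3.59 ± 0.19. MT-ATP6, which overlaps MT-ATP8, was at −3.06 ± 0.12. MT-ND6 is the mRNA encoded on the light strand, so genes annotated on both strands were called lower. The strand setting of the counts is not given, so whether RNAs transcribed from both strands were lower was not tested. All of these mRNAs except MT-CYB and MT-ND3 are uncertain in level, since 15.1 to 66.7% of their 31-base words also occur in transcripts of other genes, mostly nuclear copies of mitochondrial DNA.

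**Figure D1:**
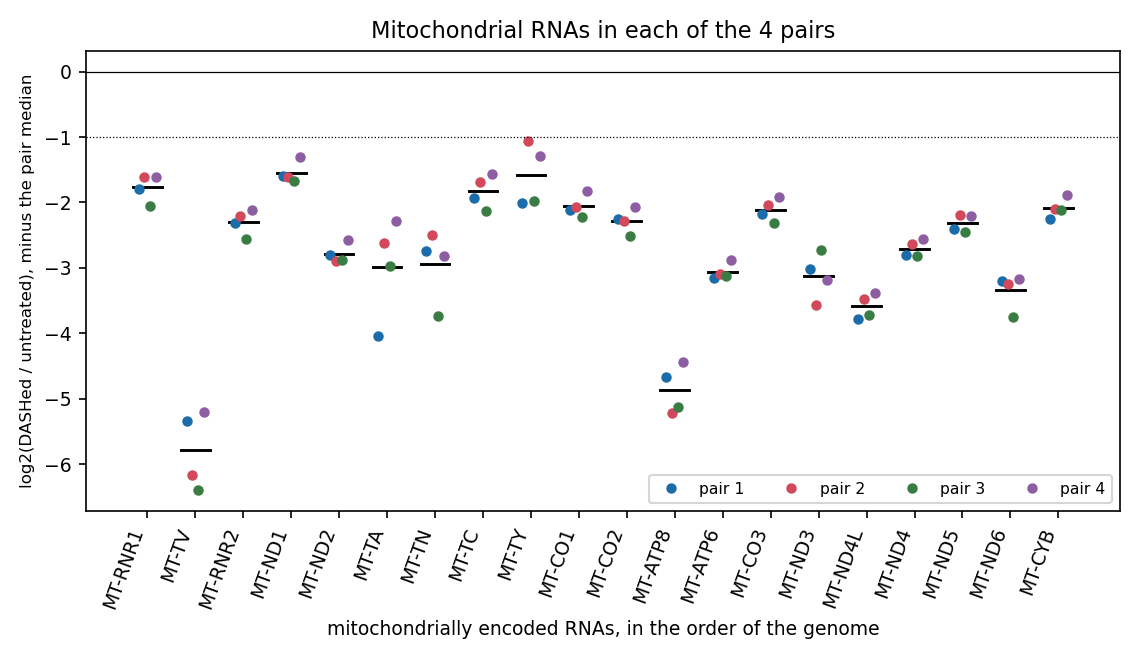
Log2 ratio of DASHed to untreated CPM minus the pair median (y axis) for the 2 mitochondrial rRNAs and the 18 measured mitochondrial genes in genome order (x axis), with 1 point per pair and a bar at the mean. Every point lies below the dotted line at a ratio 2-fold below the pair median, and MT-TV and MT-ATP8 lie lowest.

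The lowest ratio on the mitochondrial genome belonged to MT-TV, the tRNA for valine, which lies between the 12S and 16S rRNAs and is also built into the human mitochondrial ribosome as a structural RNA. It stood at 168, 62.4, 215 and 221 CPM in untreated cells 1 to 4 and at 3.67, 0, 1.87 and 5.92 CPM in DASHed cells 1 to 4, or 820 against 11 counts in all. DASHed cell 2 had none, and the mean log2 ratio was −5.78 ± 0.59. MT-TA and MT-TN, for alanine and asparagine, were at −2.98 ± 0.76 and −2.95 ± 0.55, and MT-TC and MT-TY, for cysteine and tyrosine, at −1.83 ± 0.25 and −1.58 ± 0.48. The other rRNA neighbours were not measured, with 177 against 10 counts for MT-TF and 162 against 6 for MT-TL1, not scaled for depth. A pair of nuclear copies of mitochondrial genes on chromosome 1, picked after their values were seen, had ratios near those of the genes they resemble. MTATP6P1, which shares 61.3% of its words with MT-ATP6, was at −3.04 ± 0.30, and MTND2P28, which shares 56.8% with MT-ND2, was at −3.14 ± 0.41.

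Nuclear genes for the same organelle had ratios closer to the pair median. Of 24 measured nuclear-encoded subunits of the respiratory chain, 3 were called lower and none higher (against 12.5 and 0.197% of all measured genes), with a median of −0.23. COX7B, a subunit of cytochrome c oxidase, stood at 52.2, 38.3, 33.99 and 136 CPM in untreated cells 1 to 4 and at 15.4, 8.40, 6.54 and 45.8 CPM in DASHed cells 1 to 4 (−2.06 ± 0.29), UQCRH, of complex III, was at −1.67 ± 0.68, and ATP5PB, of ATP synthase, at −1.44 ± 0.12. The values of these 3 are uncertain because of shared sequence. Of 15 measured mRNAs for mitochondrial ribosomal proteins none was called lower and 1, MRPL12, was called higher, with a median of 0.02. The median GC content was 44.3% for the mitochondrial mRNAs and 49.9% for the nuclear subunits of the respiratory chain.

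Across measured genes the ratio followed GC content, the median GC percentage of the annotated transcripts of a gene. The measured genes were ranked by it and divided into 5 groups of equal size. In the GC-poorest group (33.1 to 44.8%) the median log2 ratio was −1.64, or 3.12-fold lower, and 237 of 508 genes (46.7%) were called lower. In the next group (up to 50.03%) the median was −0.78, with 69 of 507 called lower. The middle group had a median of 0.01, with 10 of 507 called lower, and the upper 2 groups had medians of 0.37 and 0.42, with 0 of 507 and 1 of 508 called lower. The medians climbed in this order in every pair, from −1.47 to −1.76 in the GC-poorest group to 0.30 to 0.48 in the GC-richest. The Spearman correlation between the mean ratio and GC content was 0.818 over 2537 genes, which share libraries and are not independent replicates, and 0.716 to 0.752 in single pairs. Among nuclear protein-coding genes alone it was 0.821 (n = 2430). The Spearman correlation with transcript length was −0.03, and with the mean level it was 0.348, while GC content and level were themselves related at 0.301. Genes called lower had a median GC content of 43.0%, all measured genes 52.5%, and the 5 called higher 59.4%. The step at which the ratio came to follow GC content was not tested.

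**Figure D2:**
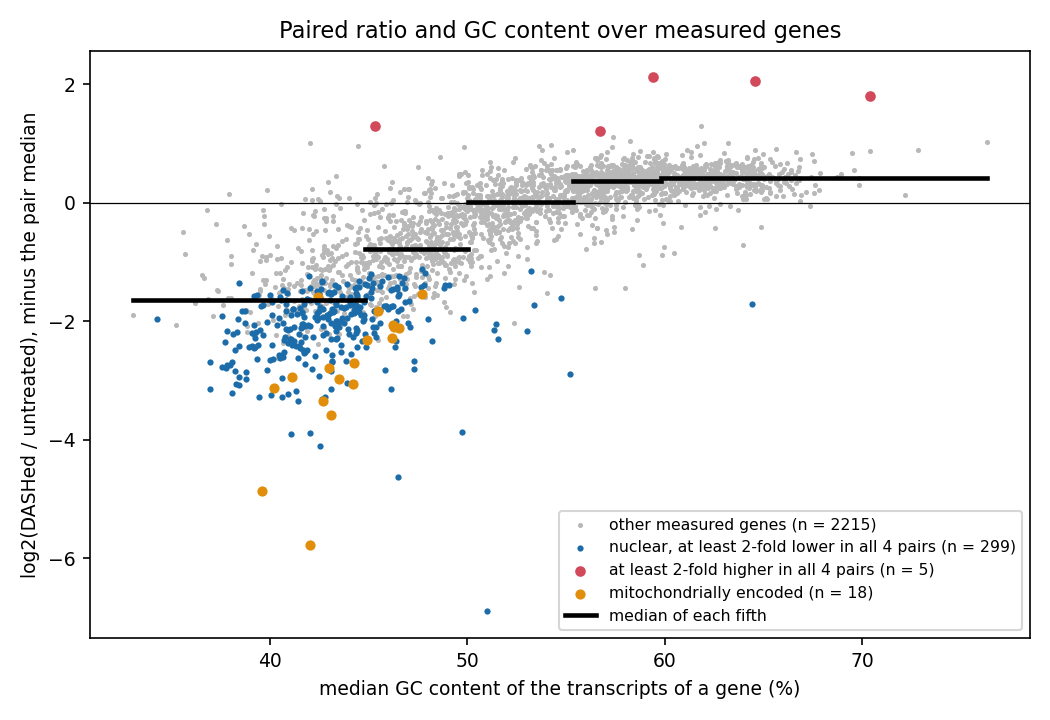
Mean log2 ratio over the 4 pairs, minus the pair median (y axis), against the GC content of a gene's transcripts (x axis, percent) for the 2537 measured genes, with 1 point per gene and black bars at the median of each of the 5 groups. The medians climb from −1.64 in the GC-poorest group to 0.42 in the GC-richest, and mitochondrial genes lie mostly below nuclear genes of like GC content.

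Few genes broke this order. In the GC-poorest group 426 of 508 genes lay below the pair median in all 4 pairs. Above it in all 4 lay 4 genes: RF00100, MIR663AHG, PHLDA1 and SERBP1. RF00100 is uncertain in level through shared sequence, and its GC content is a median over several loci, as described below. PHLDA1, a pleckstrin-homology-like protein, was at 0.35 ± 0.17 with a GC content of 43.0%, and SERBP1, which binds ribosomes and mRNA, was at 0.23 ± 0.18 with 42.1%. In the GC-richest group 370 of 508 genes lay above the pair median in all 4 pairs, 4 lay below it in all 4, and 1 of these, ANKRD34A, was called lower (−1.71 ± 0.29 at a GC content of 64.4%). When a running median over GC content (301 genes wide) was taken off within each pair, 40 genes were called lower, of which 38 were among the 317, and 29 were called higher, of which 3 were among the 5. Of the 18 mitochondrial genes 11 were then still called lower, with a median of −1.29: 10 of the 13 mRNAs, with a median of −1.30, and 1 of the 5 tRNAs, MT-TV. MT-TY moved to 0.061, on the other side of 0. MT-TV was then at −4.12, MT-ATP8 at −3.01, AC010970.1 at −3.52 and MTRNR2L1 at −2.16. Of 2430 nuclear protein-coding genes 14 were called lower on this scale, 12 of which had been called before, among them KPNB1, a nuclear import receptor (−1.22), RHOA, a small GTPase (−1.83), and RPS27, a ribosomal protein (−1.24). These and the other genes of this paragraph outside the lists were picked after their values were seen.

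Of the 5 genes called higher, 1, LINC00273, shares little sequence with other annotated transcripts of GENCODE v29. Its sharing with 28S rRNA and with the full 18S rRNA was not looked at. AL355075.4, annotated as antisense on chromosome 14, stood at 54.2, 121, 78.5 and 98.1 CPM in untreated cells 1 to 4 and at 305, 495, 417 and 483 CPM in DASHed cells 1 to 4. The groups did not overlap, and the mean log2 ratio was 2.12 ± 0.20 (4.34-fold higher). Its transcript of 638 bases contains the whole of RPPH1, the 333-base RNA of ribonuclease P, which cuts the leader off tRNA precursors, so reads of that stretch cannot be assigned to either. RPPH1 itself was at 0.90 ± 0.09. LINC00273, a long non-coding RNA at chr16:34158585-34160036 (minus strand), stood at 287, 221, 187 and 211 CPM in untreated cells 1 to 4 and at 1156, 989, 538 and 1025 CPM in DASHed cells 1 to 4 (1.81 ± 0.31, 3.51-fold higher). Cell 3 was the lowest in both groups, and 1.13% of the words of LINC00273 occur in other annotated transcripts.

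ANKRD30BL, an ankyrin-repeat gene on chromosome 2, stood at 782, 626, 971 and 703 CPM in untreated cells 1 to 4 and at 2070.3, 1948, 2349 and 2161 CPM in DASHed cells 1 to 4 (1.30 ± 0.16), with all 4 untreated cells below all 4 DASHed cells, at a GC content of 45.3%. Its value is uncertain, since 48.9% of its words occur in other genes. RPS28, a protein of the small ribosomal subunit, stood at 89.8, 131, 42.7 and 61.5 CPM in untreated cells 1 to 4 and at 223, 327, 126 and 164 CPM in DASHed cells 1 to 4 (1.21 ± 0.12), and the groups overlapped although every pair ran the same way. MRPL12, a mitochondrial ribosomal protein, stood at 56.2, 27.2, 28.99 and 3.87 CPM in untreated cells 1 to 4 and at 146, 79.8, 114 and 82.9 CPM in DASHed cells 1 to 4, but its ratio varied from 1.19 to 3.90 between pairs (2.05 ± 1.26), and 67.2% of its words occur in the readthrough gene AC139530.2. RPS28 and MRPL12 did not reach the threshold in all 4 pairs once the running median over GC content was taken off.

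The loci of the miR-663 microRNAs, 1 of which overlaps ANKRD30BL, also had high ratios. They were picked after their values were seen. MIR663B lies within the ANKRD30BL locus on chromosome 2. Shared runs were looked for on both strands. The LINC00273 transcript holds a run of 46 bases that is the reverse complement of part of the annotated MIR663B transcript. Of these, 25, in capitals, are shared on either strand with the transcript of MIR663A on chromosome 20 as well. ANKRD30BL and MIR663AHG, the host of MIR663A, share a run of 49 bases on either strand. The run of 46 bases, from base 753 of LINC00273 in GENCODE v29, is shown because it links the 3 loci in sequence.
LINC00273 from base 753: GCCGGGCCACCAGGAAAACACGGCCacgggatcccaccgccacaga

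The mature microRNAs of both loci (RefSeq, GRCh38.p14) are given with the seed, bases 2 to 8, in capitals. Their seeds differ, and neither occurs in full on the same strand in the transcripts of LINC00273 or ANKRD30BL. On the opposite strand, the start of the run above is the reverse complement of the start of hsa-miR-663b, seed included.
hsa-miR-663a: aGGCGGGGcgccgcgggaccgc
hsa-miR-663b: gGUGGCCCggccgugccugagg

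MIR663AHG, the host transcript of MIR663A, stood at 1662, 1051, 1799.6 and 1586 CPM in untreated cells 1 to 4 and at 4007, 2393, 3251 and 3838 CPM in DASHed cells 1 to 4 (0.97 ± 0.18). The row of MIR663A was at 1.02 ± 0.20 and that of MIR663B at 0.87 ± 0.25. Both values are uncertain, since 74.6% of the words of MIR663A occur in MIR663AHG and 18.8% of those of MIR663B in LINC00273. The ratios of these loci are therefore not separate observations. The rows of MIR663AHG, MIR663A and MIR663B were above the pair median in every pair and under 2-fold in at least 1. These rows count reads over annotated precursors and host transcripts, and the mature microRNAs were not measured separately.

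**Figure D3:**
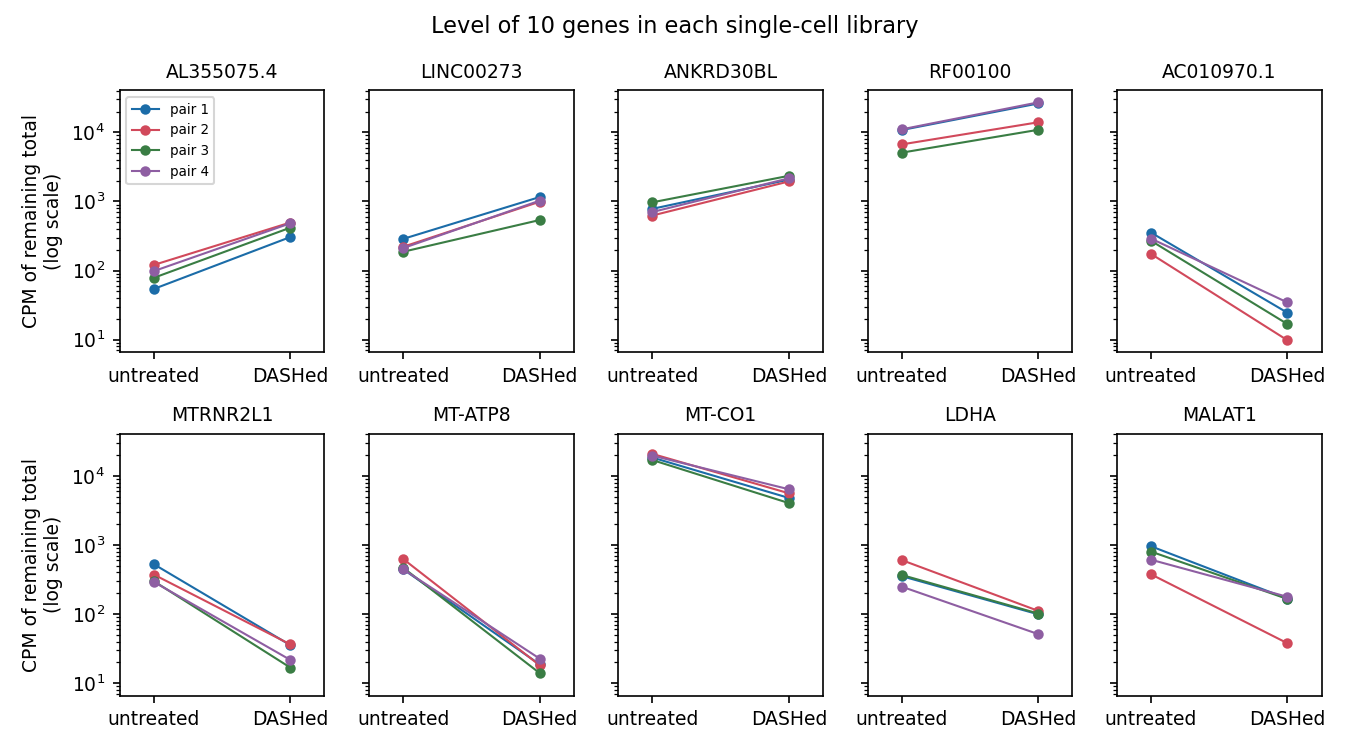
Level in CPM of the remaining total (y axis, log scale) of 10 genes in the untreated and the DASHed library of each pair (x axis), with 1 line per pair. The upper row begins with 4 RNAs that were higher after depletion in all 4 pairs, and AC010970.1 and the lower row show 6 RNAs that were lower in all 4 pairs.

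The listed small cytoplasmic and processing RNAs that were measured had ratios above the pair median. The list of cytoplasmic and processing RNAs had 4 measured members, all above the pair median on average, with a median of 0.79, and none reached 2-fold in all 4 pairs. The median GC content of the list was 62.9%, and with the running median over GC content taken off its median ratio was 0.36. RF00100, a family name under which the reads of 7SK, the RNA that holds the elongation factor P-TEFb inactive, appear from several loci, is uncertain in level, since 62.6% of its words occur in other genes. It stood at 10796, 6686, 5079 and 11044 CPM in untreated cells 1 to 4 and 26142, 13971, 10876 and 27115 CPM in DASHed cells 1 to 4. Cells 1 and 4 were high and cells 2 and 3 lower in both groups, and the mean log2 ratio was 1.005 ± 0.109. The GC content under this name was 42%, in the range where most genes were lower. That value is the median over the annotated transcripts of several loci. The GC content of the loci that gave the reads was not determined, so the place of 7SK in the GC order is not known. RN7SL2, an RNA of the signal recognition particle, was at 0.54 ± 0.11, and RMRP, the RNA of ribonuclease MRP, which cuts rRNA precursors, at 0.68 ± 0.15. Shared sequence was not counted for RN7SL2, RMRP or BCYRN1, which follows. Of the whole class of 7 small non-coding RNAs 1 (14.3%, against 12.5% of all measured genes) was called lower: BCYRN1, a primate cytoplasmic RNA with Alu sequence, at −2.16 ± 0.86. Spliceosomal small nuclear RNAs and small nucleolar RNAs were too low to be measured. They reached at most 29.5 and 220 CPM as sums over 23 and 441 names. These sums lay below the pair median on average, at −1.10 ± 1.21 (−2.40 to 0.08 over pairs) and −0.74 ± 0.34 (−1.05 to −0.37).

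Histone mRNAs, which end in a stem-loop in place of a poly(A) tail, were likewise above the pair median. All 7 measured members were above it on average, with a median of 0.62 and values up to 1.30, and none was called either way. HIST1H4C, a histone H4 gene, stood at 1089.8, 244, 352 and 165 CPM in untreated cells 1 to 4 and 1744, 340.1, 520.2 and 315 CPM in DASHed cells 1 to 4, with cell 1 far above the others in both groups (0.48 ± 0.18). HIST1H1E, a linker histone, was at 0.51 ± 0.13. Summed over all histone names, the level ran from 752 to 11841 CPM among untreated cells and from 1247 to 22877 CPM among DASHed cells, while the ratio within a pair stayed at 0.70 ± 0.09. With the running median over GC content taken off, their median was 0.74.

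Long non-coding RNAs as a class had a low median. Of 57 measured, 20 (35.1%) were called lower and 2 higher, with a median of −1.22, against 12.5% lower over all measured genes, and their share of the remaining counts was 0.781 of that in untreated cells (0.751 to 0.817 over pairs). Of the listed nuclear long non-coding RNAs 10 were measured and 3 were called lower, with a median of −1.66. MALAT1, a nuclear-speckle RNA, stood at 957, 376, 801 and 612 CPM in untreated cells 1 to 4 and at 167, 37.8, 165 and 178 CPM in DASHed cells 1 to 4 (−2.64 ± 0.62, 6.23-fold lower). Cell 2 was the lowest in both groups, and the groups did not overlap. TUG1, uncertain through shared sequence, was at −2.26 ± 0.56 and SNHG1, the host of several small nucleolar RNAs, at −1.84 ± 0.29. Their median GC content was 43.7%, and with the running median over GC content taken off none of the 10 was called, with a median of −0.53. Of the whole class of 57, 10 (17.5%) were called lower on that scale, all of them among the 20, against 40 (1.58%) of all measured genes.

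Lower still were some genes with low counts after depletion. AL662797.1, annotated as antisense on chromosome 6, stood at 305, 109, 524 and 208 CPM in untreated cells 1 to 4 and at 0, 0, 29 and 0 CPM in DASHed cells 1 to 4, and 3 of the 4 DASHed cells had no count, which at 3 counts allows up to 2.96 to 4.20 CPM in these libraries. Its value is uncertain, since 68.5% of its words are those of TUBB, a beta-tubulin gene on the opposite strand, and TUBB itself was at 0.30 ± 0.12. MORC4, a chromatin ATPase, stood at 63.3, 103, 59.9 and 104 CPM in untreated cells 1 to 4 and at 1.39, 0, 10.5 and 5.66 CPM in DASHed cells 1 to 4 (−4.64 ± 1.79). TMEM45A, a membrane protein, stood at 109.9, 55.5, 89.1 and 159 CPM in untreated cells 1 to 4 and at 7.86, 1.99, 4.88 and 9.99 CPM in DASHed cells 1 to 4 (−4.10 ± 0.25). The long non-coding RNAs LINC00504 and AC024257.3 were at −3.89 ± 0.73 and −3.35 ± 1.45. All but AC024257.3 share over 10% of their sequence words with other genes, and their DASHed counts summed to 17 to 41 over the 4 libraries.

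Among genes for the protein-making and protein-keeping machinery, lists differed. Of 74 measured mRNAs for ribosomal proteins 9 were called lower and 1, RPS28, higher (against 12.5 and 0.197% of all measured genes), with a median of −0.03. RPL34 stood at 251, 162, 116 and 281 CPM in untreated cells 1 to 4 and at 53.9, 41.5, 27.1 and 119 CPM in DASHed cells 1 to 4 (−2.03 ± 0.41), RPL5 was at −1.95 ± 0.36 and RPS24 at −1.89 ± 0.31. Their summed level lay 0.14 ± 0.04 above the pair median. Of 27 translation factors 4 were called lower, with a median of −0.73 over the mean ratios and of −0.31 to −0.56 in single pairs. EIF3E, a subunit of initiation factor 3, was at −2.98 ± 0.18, EIF5B, which joins the ribosomal subunits, at −2.30 ± 0.37, and EIF2S2, of initiation factor 2, at −1.97 ± 0.40. Of 19 chaperones 8 were called lower, with a median of −1.37. HSPD1, the mitochondrial chaperonin, stood at 344, 125, 132 and 267 CPM in untreated cells 1 to 4 and at 99.2, 22.4, 40.2 and 55.2 CPM in DASHed cells 1 to 4 (−2.22 ± 0.37), CCT8, a cytosolic chaperonin subunit, was at −2.14 ± 0.70, and HSP90B1, of the endoplasmic reticulum, at −1.94 ± 0.34. Of 20 proteasome subunits 4 were called lower, with a median of −0.16, and PSMA4 was at −2.63 ± 0.61, PSMD1 at −1.65 ± 0.45 and PSMC2 at −1.64 ± 0.37. Of 28 nucleolar factors 4 were called lower, with a median of 0.06, and NOP58, NOL11 and NPM1 were at −2.45 ± 1.07, −2.23 ± 0.53 and −1.93 ± 0.43. Shared sequence makes the values of RPS28, RPL5, EIF5B, EIF2S2, HSPD1, CCT8, HSP90B1, PSMD1, NOL11 and NPM1 uncertain.

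Splicing and cell-division genes had low medians as well. Of 22 hnRNP and SR proteins, which bind and splice pre-mRNA, 3 were called lower and none higher (against 12.5 and 0.197% of all measured genes), with a median of −1.04, so the share called was near that of all genes while the median was lower. HNRNPA3, uncertain through shared sequence, stood at 166, 113, 50.5 and 178 CPM in untreated cells 1 to 4 and at 35.5, 11.2, 10.3 and 22.7 CPM in DASHed cells 1 to 4 (−2.81 ± 0.54), HNRNPC was at −1.89 ± 0.17 and HNRNPH1 at −1.46 ± 0.26. Of 21 mitosis genes 4 were called lower, with a median of −0.76. ECT2, which activates RhoA for cytokinesis, stood at 201, 492, 179 and 168 CPM in untreated cells 1 to 4 and at 19.98, 67.2, 25.2 and 26.6 CPM in DASHed cells 1 to 4 (−3.06 ± 0.27), with cell 2 the highest of both groups, while CENPF, a kinetochore protein, was at −1.56 ± 0.61 and CKAP5, a microtubule polymerase, at −1.55 ± 0.38. Of 15 DNA replication genes none was called, with a median of −0.02 over the mean ratios and of 0.0037 to 0.25 in single pairs, and the helicase subunits MCM5 and MCM7 were at 0.42 ± 0.21 and 0.38 ± 0.13. MCM5 stood at 211, 751, 1348 and 168 CPM in untreated cells 1 to 4 and at 288, 1153, 1787 and 319 CPM in DASHed cells 1 to 4, highest in cell 3 of both groups.

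Within pathways, ratios ran both ways, and the counts called lower below compare with 12.5% of all measured genes. Of 12 glycolytic enzymes 2 were called lower, both subunits of lactate dehydrogenase, while the median of the list was 0.33. LDHA stood at 354, 604, 368 and 249 CPM in untreated cells 1 to 4 and at 99.2, 111, 102 and 51.3 CPM in DASHed cells 1 to 4 (−2.27 ± 0.32). LDHB stood at 549, 1015, 752 and 538 CPM in untreated cells 1 to 4 and at 116, 242, 180.2 and 151 CPM in DASHed cells 1 to 4 (−2.22 ± 0.15). GAPDH, ENO1 and PKM, named after their values were seen, were at 0.31 ± 0.03, 0.42 ± 0.10 and 0.35 ± 0.06. The transcripts of LDHA and LDHB have GC contents of 45.4 and 44.01%, and those of GAPDH, ENO1 and PKM 56.9, 52.2 and 56.5%. ENO1, with the highest ratio of these 3, thus had a GC content just below the median of all measured genes, 52.5%. Of 13 genes of the Wnt pathway, which is constitutively active in most colon cancers, 2 were called lower: TNKS2, a tankyrase, at −2.93 ± 1.21, and APC, a scaffold of the complex that degrades beta-catenin, at −2.54 ± 0.35. Of 13 RAS pathway genes 1 was called lower, NRAS (−2.41 ± 0.74), and of 3 measured p53 targets 1, MDM2, the ubiquitin ligase of p53 (−1.52 ± 0.44). APC stood at 111, 205, 48.1 and 122 CPM in untreated cells 1 to 4 and at 28.2, 41.98, 7.47 and 17.8 CPM in DASHed cells 1 to 4, and the highest DASHed cell was below the lowest untreated one. The values of LDHB and MDM2 are uncertain because of shared sequence.

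Cholesterol synthesis genes, immediate-early genes and epithelial markers had medians above 0 and no calls, with median GC contents of 56.9, 60.9 and 58.1%. Of 7 cholesterol synthesis genes the median was 0.40, with SREBF2, the master regulator, at 0.41 ± 0.13. Of 7 immediate-early genes the median was 0.40, with FOSL1 at 0.48 ± 0.18 and JUNB at 0.62 ± 0.22. JUNB stood at 124, 1499, 57.6 and 157 CPM in untreated cells 1 to 4 and 227, 2393, 85.9 and 338 CPM in DASHed cells 1 to 4, so that cell 2 was far above the others in both groups. Of 3 epithelial markers the median was 0.43, with KRT8 at 0.43 ± 0.10 and KRT18 at 0.29 ± 0.10, both uncertain through shared sequence, as is JUNB. In all, 12 of the 22 lists with at least 3 measured members had a median below 0, and on the uncentred scale that keeps rRNA in the total 1 did. With the running median over GC content taken off, the medians of chaperones, translation factors and hnRNP and SR proteins were −0.03, −0.07 and −0.21, and the medians of 9 of the 22 lists crossed 0. Those of ribosomal protein, respiratory chain, proteasome, DNA replication and mitosis genes went from below 0 to 0.14, 0.0072, 0.085, 0.12 and 0.038. Those of Wnt, p53, cholesterol and immediate-early genes went from above 0 to −0.057, −0.011, −0.031 and −0.0092. The median of nuclear long non-coding RNAs moved from −1.66 to −0.53 and that of mitochondrial mRNAs from −2.71 to −1.30.

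**Figure D4:**
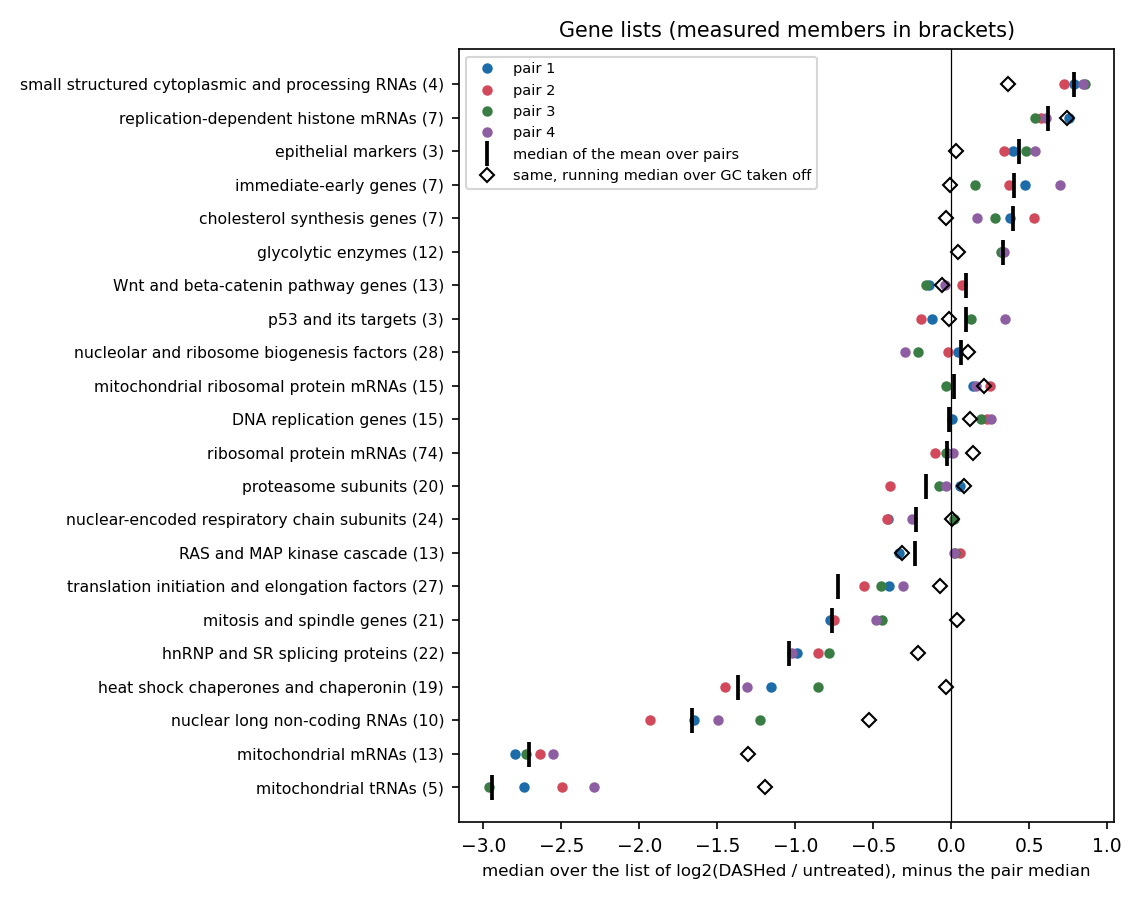
Median over the measured members of each list of the log2 ratio minus the pair median (x axis), for each pair (coloured points), for the mean over pairs (vertical bar) and for that mean with the running median over GC content taken off (open diamond). The mitochondrial lists lie lowest by both measures, and most other open diamonds lie close to 0.

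Gene detection was compared at equal depth. Each library was thinned at random to 714514 remaining counts, the smallest total. Untreated cells 1 to 4 then showed 14292, 12151, 14685 and 14537 genes with at least 1 count, and DASHed cells 1 to 4 showed 11777, 9885, 12198 and 12170. Each DASHed cell showed fewer genes than its partner, though DASHed cells 3 and 4 exceeded untreated cell 2, and the ratio within a pair was 0.826 ± 0.010 (SD, n = 4). At a minimum of 5 counts the ratio was 0.825 and at 10 counts 0.839. When all rows were kept and each library was thinned to 1018815 counts, rRNA included, the ratio was 1.03 ± 0.03, with DASHed cell 2 below its partner. Genes seen on 1 side only were few at the same equal depth. Of genes at 20 CPM or more in an untreated cell, 0.787 to 1.64% had no count in its DASHed partner, and their median GC content was 41.1 to 43.1%. In the other direction the share was 0.0567 to 0.0920%, or 3 to 5 genes a pair. No gene was lost in this sense in all 4 pairs.

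**Figure D5:**
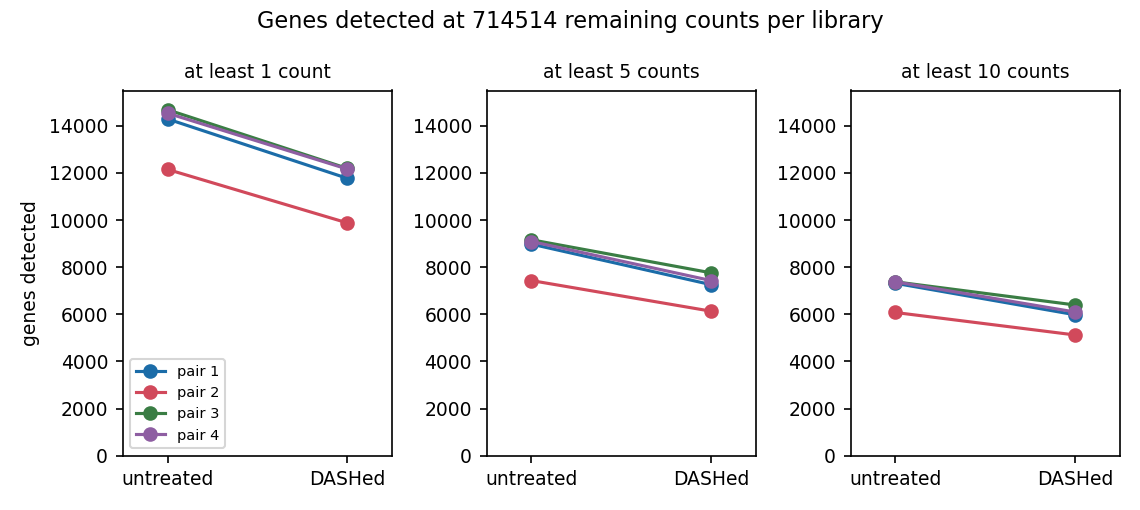
Number of genes detected (y axis) in the untreated and DASHed library of each pair (x axis) after thinning to 714514 remaining counts, at a minimum of 1, 5 and 10 counts, with 1 line per pair. The DASHed library lies below its partner in all 4 pairs at each minimum.

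Differences between cells were larger than the variation of the ratio between pairs. The SD of the 4 paired log2 ratios of a gene had a median of 0.309 over the measured genes, while the SD of log2 CPM was 0.764 among the untreated and 0.863 among the DASHed cells. The SD of the paired ratio narrowed with the level of the gene, from a median of 0.690 for genes at 20 to 50 CPM to 0.123 for genes above 500 CPM. Levels of same-numbered cells correlated at 0.775 to 0.847 over measured genes (Pearson, log2 CPM, across genes), those of DASHed and untreated cells of different numbers at 0.395 to 0.566, and those of different cells of 1 group at 0.559 to 0.706. Without the pairing, 240 genes had a ratio of group means of at least 2-fold with all 4 DASHed cells below all 4 untreated cells, and 5 the reverse.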

How the data were processed

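Total RNA was analysed in 8 libraries labelled as single HCT116 cells, 4 DASHed and 4 untreated, grouped by the labels. The authors deposited a gene-level table of estimated counts without depth scaling. The submitters' processing notes name kallisto 0.46.2. Which build, annotation and strand setting it used, and how transcripts were summed, is not given in the sources used here. Reads are shared out by the program among similar transcripts, so near-identical genes depend on each other. Of 57134 genes, 57130 matched names of GENCODE v29 (GRCh38) after 51 of 52 damaged names were restored, and GENCODE supplied types, coordinates, GC content and sequences.

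The 547 rRNA rows and 4 genes inside 18S rRNA were removed, which left 56583 genes, 25184 of them with counts. Counts were scaled to CPM of the remaining total. A count of 3 corresponds to 1.99 to 4.20 CPM in a library. Paired log2 ratios used a pseudocount of 1 CPM and were centred on the median of genes with a pair mean of at least 20 CPM in all 4 pairs. Estimated counts were rounded to whole numbers for intervals and thinning. Binomial intervals are exact (Clopper-Pearson) at 95% and cover counting error only. A gene is called uncertain where at least 10% of its 31-base words occur in transcripts of other genes on either strand. Words were counted only for genes picked by the rule below and a few added to them. They were not counted for RN7SL2, RMRP, BCYRN1, TUBB, RPS27, RHOA, KPNB1, GAPDH, ENO1 or PKM, among others. A missing mark there says nothing about shared sequence. The computation was tested on simulated data.

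The labels do not say what a replicate number marks, nor whether like-numbered libraries came from 1 cell. Libraries of like number had correlated deviations from the group means (0.866 to 0.872). For unlike numbers the correlation was −0.343 to −0.242, negative through centring. On this evidence, the numbers were taken to pair the libraries, which rests on the data and not on the labels. No library repeated the values of another. Mini-bulk libraries were left out. No test was made: a group of single cells from no named culture is 1 sample.

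Named genes were the 10 with the largest mean ratio each way among those called (5 existed on the higher side), up to 3 called members of each list or its 2 highest in CPM, every mitochondrial mRNA and the measured holders of rRNA stretches. The lists and the rule were chosen with earlier results of these data known. The alternatives used TMM factors of edgeR 4.0.16 and size factors of DESeq2 1.42.0 (R 4.3.3), other pseudocounts, filters and thresholds, a running median over GC content, no pairing, and each pair left out. Python 3.11.15, numpy 2.4.6, pandas 2.3.3 and scipy 1.17.1 were used.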

Additional observations from a re-analysis of the deposited data

Results flagged for a closer look

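Of 108 groups of 4 values looked at, 4 held a value set apart from the other 3, by Dixon's 95% criterion for the gap to the nearest value over the whole range, and chance alone sets apart about 1 in 20 such groups. DASHed cell 1 had the highest rRNA share, 24.4%, beside 20.5, 20.5 and 20.8% in DASHed cells 2 to 4. In pair 3, MT-ND6 had a log2 ratio of −3.75, beside −3.20, −3.25 and −3.17 in pairs 1, 2 and 4. CKAP5 stood at −2.11 in pair 3, beside −1.37, −1.41 and −1.31. The median of the RAS pathway list was −0.33 in pair 1 and 0.06, 0.02 and 0.02 in pairs 2 to 4. The direction was the same in all 4 pairs for both genes, but not for the list.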

How the results depend on the processing

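The counts of genes called higher and lower, 5 and 317, became 9 and 252 without centring, 12 and 204 with TMM factors, 75 and 156 with DESeq2 size factors, and 1108 and 8 with rRNA kept in the total. They were 3 and 181 at 50 CPM, 19 and 961 with no filter, 33 and 519 at 1.5-fold, and 29 and 40 with the running median over GC content taken off. Without the replicate block they were 5 and 240. Leaving out each pair in turn gave 5 to 11 higher (8 without pair 2, 11 without pair 3) and 406 to 449 lower. The lists with a median below 0, 12 of 22, were 7 under TMM, 7 under DESeq2 and 1 with rRNA kept. On that last scale, which lifts the median gene by 1.94, the medians of nuclear long non-coding RNAs, translation factors, chaperones, mitosis genes and hnRNP and SR proteins turned to 0.25, 1.63, 0.54, 1.07 and 0.95, and PSMD1, CENPF, CKAP5, HNRNPH1 and MT-ND1 to 0.10, 0.20, 0.21, 0.30 and 0.23. With GC taken off, 9 of 22 list medians changed sign: ribosomal protein, respiratory chain, proteasome, DNA replication and mitosis genes to 0.14, 0.0072, 0.085, 0.12 and 0.038, and Wnt, p53, cholesterol and immediate-early genes to −0.057, −0.011, −0.031 and −0.0092. PSMC2, CENPF, MDM2 and MT-TY turned to 0.027, 0.28, 0.25 and 0.061. With no filter, 8 of the 23 holders of rRNA stretches were called lower, not 2, and 20 of the 23 had counts. Under that setting 961 of all 25184 genes with counts were called lower. Apart from GNPTAB, with 129, no unmeasured holder had more than 30 counts summed over the DASHed libraries. Most of the added calls among holders thus rest on few counts. The Spearman correlation with GC content was 0.786 at 50 CPM and 0.799 to 0.814 with a pair left out. The ratio of detected genes was 0.839 at 10 counts and 1.03 with all rows kept, and the median SD of the paired ratio was 0.228 at 50 CPM. Over all alternatives, 1121 values of single named genes were computed, and the sign of a called gene turned in 8 of them, which leave out MT-TY. The cause of these shifts was not tested, beyond fewer or more genes entering under another filter. Depth limits the ratios of genes near 20 CPM most.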
